A study of Mus musculus with 6 samples.

Results

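Notch signaling genes were followed across the cells and tissue sections of the aging mouse uterus. The group holds 10 genes chosen by name: the receptors Notch1, Notch2, Notch3 and Notch4, the ligands Jag1, Jag2 and Dll1, and the target genes Hes1, Hey1 and Heyl. All 10 had a row among the 24077 genes counted in single cells and among the 30828 genes counted in tissue sections. CD-1 mice had received corn oil (CO) or diethylstilbestrol (DES), a synthetic estrogen, on days 1 to 5 of life, with DES at 1 mg/kg/day, and uteri were taken at 12 months of age. Uterine horn cells of 2 CO mice were pooled into a single library, and those of 4 DES mice into another. Visium sections, in which RNA is captured on spots that can each hold several cells, came from 2 CO uteri (CO A and CO B) and 2 DES uteri (DES A and DES B), with 1 mouse behind each section. Tissue blocks from DES mice had been examined for adenocarcinoma before sectioning, and the study describes a fold in CO B and poorly resolved spot clusters in DES B.

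Notch receptors are membrane proteins that are cut when they bind a ligand on a neighboring cell. The released intracellular domain joins the DNA-binding protein RBPJ and turns on target genes, of which the repressors HES1, HEY1 and HEYL are classic examples. NOTCH1, NOTCH4 and several ligands are well known from endothelium, and NOTCH3 and HEYL from the mural cells that wrap vessels. JAG2, DLL1 and HES1 are known from many epithelia, and the ligands JAG2 and DLL1 also from the basal layer of stratified epithelium.

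Levels are counts of unique molecular identifiers (UMIs, each standing for a captured RNA molecule), scaled to a total of 1000000 over the cells or spots that were summed and written as CPM. In single cells the range in parentheses after a value is an exact Poisson 95% interval, or the corresponding exact interval for a ratio, and covers counting error only. Each treatment had 1 library, so CO and DES cells were set side by side without a test and without replicates. The libraries held 32387 CO and 16312 DES cells with medians of 6779 and 10153.5 UMIs, and the authors named a cell type for 12253 and 9701 of them. Between the libraries 180 cell barcodes were shared, and leaving out the cells that carry them moved no gene of the group across the 2-fold line in any comparison. The 4 sections held 9117099 to 12506177 UMIs on 1357 to 1834 spots.

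Promoter sequence was read because Jag2, Hes1 and Notch3 passed the test together in the DES sections and Dll1 lay in the same direction, as described further on. The 250 bases before the transcription start were taken from RefSeq on GRCm38.p6 for 7 of the 10 genes, with 8 promoters in all. Those of Hes1, Hey1 and Heyl were not analysed here. The promoters of Dll1 (second start, chr17:15376933-15377182, minus strand) and Notch3 (chr17:32166891-32167140, minus strand) are shown because both windows lie wholly upstream of the annotated gene. They read 5′ to 3′, and capitals mark the AP-1 match (TGANTCA, where N is any base) in Dll1 and the GC boxes (GGGCGG or its reverse complement CCGCCC) in Notch3.
Dll1: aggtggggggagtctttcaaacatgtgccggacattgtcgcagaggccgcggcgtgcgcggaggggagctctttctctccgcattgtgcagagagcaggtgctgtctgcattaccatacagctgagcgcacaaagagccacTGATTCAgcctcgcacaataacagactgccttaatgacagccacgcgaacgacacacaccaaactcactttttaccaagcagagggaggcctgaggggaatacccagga
Notch3: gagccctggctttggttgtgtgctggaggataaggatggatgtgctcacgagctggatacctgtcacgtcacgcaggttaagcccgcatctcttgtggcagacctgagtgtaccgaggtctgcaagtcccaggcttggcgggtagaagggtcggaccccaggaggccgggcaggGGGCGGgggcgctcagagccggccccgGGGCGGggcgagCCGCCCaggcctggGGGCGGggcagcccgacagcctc
The AP-1 match of Dll1 begins 109 bases before the start, and 6.75% of all 32851 mouse promoters of the same length hold such a match on either strand. Notch3 held 4 GC boxes, 76, 49, 37 and 23 bases before the start, and 32.7% of all promoters hold at least 1. Notch1 and Notch2, which did not pass, had 5 GC boxes each, and the first Dll1 promoter, Jag1 and Notch4 held no match to any of the motifs searched. The windows of Notch1 and of the first Dll1 start lie wholly inside the annotated genes, and those of Jag1, Notch2 and Notch4 in part. The Jag2 promoter, not printed here because its window lies inside the annotated gene, had 5 GC boxes and 87.2% G and C, a share reached by 0.0426% of all promoters (median 52.4%). RBPJ-type letters (TGGGAA, in 21.6% of all promoters), the E-box CACGTG bound by HES and HEY proteins (6.02%) and the estrogen response element (GGTCA and TGACC set 3 bases apart, 0.0639%) were found in none of the 8 windows, which says only that these letters are absent there.

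The CO library, which held 9 cell types with at least 50 cells, showed where each gene is used in the control uterus (heat map of cell types). The endothelial and mural labels were carried by their markers. The endothelial list summed to 5194 CPM in the 341 CO endothelial cells, against 10.7 in CO epithelial cells, and the mural list to 7781 in the 75 pericytes, against 24.3 in endothelial cells. Cells labelled mesothelial carried their own list at 2965 but also the stromal list at 21126, above its 12687 in cells labelled stromal, so that cells under this label carried both lists. Cells labelled lymphocytes held the lymphoid list at 927 in CO and 711 in DES, and the myeloid list at 3431 and 8886. The DES library held 5 endothelial cells, 1 stromal cell and no pericytes or myocytes.

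Among CO cell types, receptor CPM was highest in endothelial cells for Notch1 and Notch4, in pericytes for Notch3 and in mesothelial cells for Notch2. By share of UMIs of annotated CO cells, epithelial cells held 69.0% of Notch1 and 72.4% of Notch3. Mesothelial cells held 70.1% of Notch2, and endothelial cells 51.5% of Notch4. Notch1 (chromosome 2, 26457903 to 26516663) was highest in endothelial cells at 165 CPM (150 to 182), with pericytes next at 42.6 (23.8 to 70.2), and lowest in mesothelial cells at 2.24. Notch4 (chromosome 17, 34564268 to 34588503) was at 59.7 (50.7 to 69.8) in endothelial cells and at most 1.78 in any other CO type of at least 50 cells. Notch3 (chromosome 17, 32120820 to 32166852) was highest in pericytes, at 227 (180 to 282), or 49.8 times its next level of 4.56 in epithelial cells. Notch2 (chromosome 3, 98013527 to 98150361) had the flattest profile, from 36.1 in mesothelial and 30.8 in myeloid cells, whose intervals overlap, to 6.85 in endothelial cells. Of CO endothelial cells thinned to 3000 UMIs, 34.2% held a Notch1 UMI, and of pericytes 54.0% held a Notch3 UMI, against 0.729% and 0.0447% of mesothelial cells (median depths before thinning 6309, 3920 and 10436 UMIs).

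Of the ligands, Jag2 and Dll1 were highest in CO endothelium. Jag2 (chromosome 12, 112907819 to 112929776) stood at 74.2 CPM (64.1 to 85.3) in endothelial cells and at 1.78 in lymphocytes, the next type, a ratio of 41.7. Dll1 (chromosome 17, 15367354 to 15376872) was at 19.8 (14.8 to 25.9) in endothelial cells and 2.22 in lymphocytes. Jag1 (chromosome 2, 137081456 to 137116644) was spread more evenly, with pericytes at 36.9 (19.6 to 63.1), epithelial cells at 28.9 (27.7 to 30.1) and endothelial cells at 28.5 (22.4 to 35.8), 3 levels whose intervals overlap. CO epithelium held little Jag2, at 0.736 (0.559 to 0.951), and 9 UMIs of Dll1 in 2583 cells. Because cell types differ in number, 60.2% of the Jag2 UMIs of annotated CO cells lay in endothelial cells, while for Dll1 33.1% lay there and 56.7% in the far more numerous mesothelial cells.

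Among the targets, Hes1 (chromosome 16, 30064384 to 30067796) was broad, with stromal cells at 265 CPM (256 to 274) and endothelial cells at 257 (238 to 277) not distinguishable, epithelial cells at 221 (218 to 224), and myocytes lowest at 51.1. Hey1 (chromosome 3, 8663359 to 8667256) was highest in endothelial cells at 40.3 (33.0 to 48.8), 12.6 times its epithelial level. Heyl (chromosome 4, 123233556 to 123249875) was highest in pericytes at 70.9 (45.9 to 105), 13.9 times its stromal level, and had no UMI in 341 endothelial cells, which allows up to 1.1 CPM (3 UMIs).

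**Figure D1:**
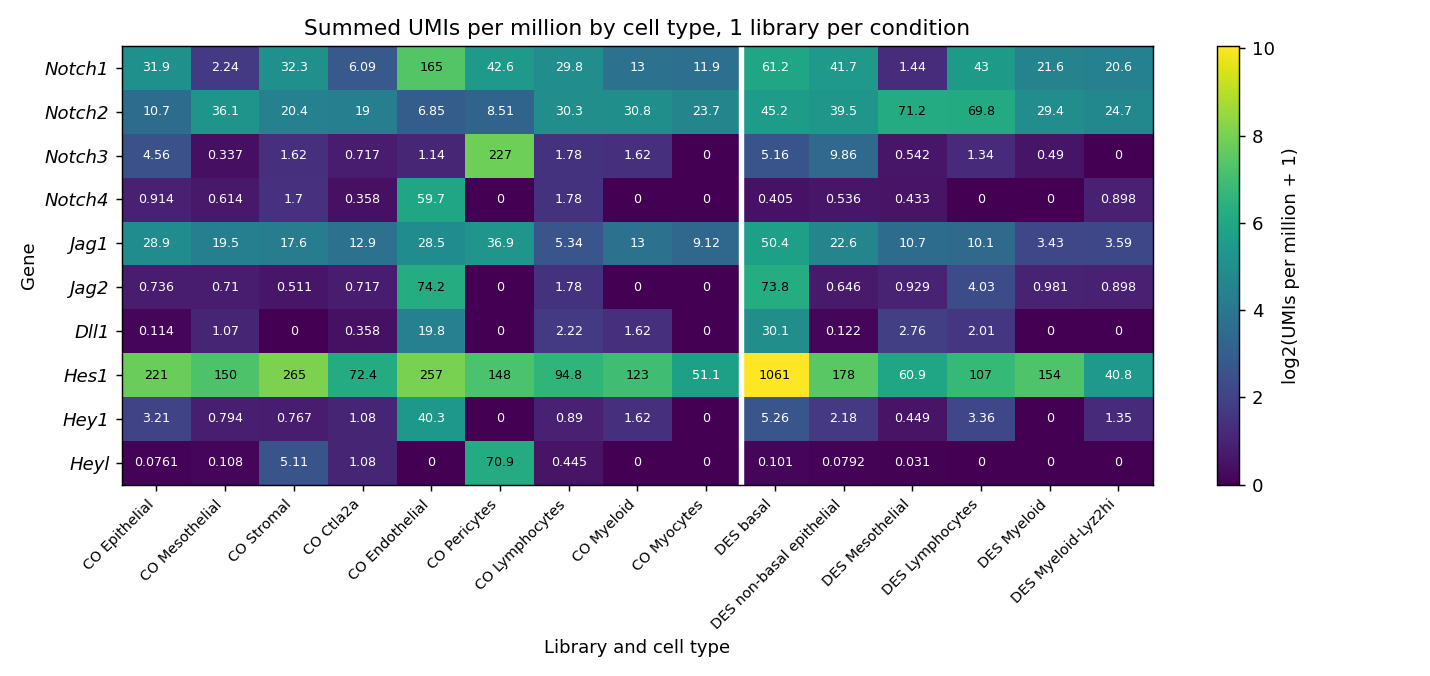
Summed CPM of each Notch gene (rows) in each cell type of the CO (left of the white line) and DES (right) libraries, with the value printed in each cell and color on a log2(value + 1) scale; types under 50 cells are left out. Jag2 and Dll1 are high in CO endothelial cells (74.2 and 19.8) and in DES basal cells (73.8 and 30.1), and Notch3 and Heyl in CO pericytes (227 and 70.9).

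Over 14 groups of at least 50 cells, formed by cell type and library, the profiles of the genes were compared with those of 12325 others by Pearson correlation of log2(CPM + 1). These are descriptions, since the groups share 2 libraries and differ in depth. Jag2 was most like Mcf2l (r = 0.959), Fgd5 (0.958) and Ripply3 (0.957), and Hey1 most like Upp1 (0.935), Mcf2l (0.921) and Fgd5 (0.919). Notch4 was closest to Syt7 (0.979), Bcl6b (0.977) and RP23-158F12.1 (0.964), Heyl to Iqsec3 (0.976), Srcin1 (0.972) and Ccdc170 (0.965), and Notch3 to Zfp217 (0.928), Nudt4 (0.925) and Fam81a (0.913). Dll1 was closest to Foxp1 (0.894), Gbp9 (0.881) and Marc2 (0.875), and Jag1 to Rnps1 (0.936), Ehmt1 (0.928) and Brwd1 (0.927). The other profiles were those of Notch1, with Iffo2 (0.888), Elk3 (0.841) and Rnf114 (0.841), of Hes1, with Stam2 (0.840), Ddx24 (0.816) and Txnl1 (0.808), and of Notch2, with Mbp (0.784), Snhg9 (0.766) and Cxcl9 (0.760). Within the group the pairs Jag2 and Hey1 (0.895), Jag2 and Dll1 (0.854), Jag2 and Notch4 (0.853) and Notch3 and Heyl (0.825) were also alike.

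In the DES library, which held 5 endothelial cells, most Jag2 and Dll1 UMIs of annotated cells lay in basal epithelial cells. Basal cells were taken from the DES library only, as epithelial cells in which Krt14 and Trp63 each had more than 1 UMI. They numbered 483 and were compared with the 4604 other cells of the 16 DES epithelial clusters. The library held 5255 cells labelled epithelial, so some lay in neither group. Of the 954 Jag2 UMIs of all epithelial cells, 730 lay in basal cells and 106 in cells of the 16 clusters. The cells left out thus also carried Jag2. Jag2 was at 0.635 CPM in non-basal cells and 73.8 in basal cells, which is 116-fold higher (94.5 to 144) and close to the level in CO endothelium. Dll1 was at 0.110 and 30.1, or 274-fold higher (170 to 469), and Jag1 at 22.6 and 50.4, or 2.23-fold higher (2.03 to 2.45). Basal cells were 483 of 9701 annotated DES cells. Of the UMIs of those annotated cells they held 71.2% for Jag2, 55.5% for Dll1 and 22.5% for Hes1. Mesothelial cells held 33.1% of the Dll1 UMIs. The 5 DES endothelial cells held 2 Jag2 UMIs, or 38.2 CPM (4.63 to 138). These shares therefore depend on which cells were captured. After thinning to 3000 UMIs, 20.7% of basal cells held a Jag2 UMI and 8.90% a Dll1 UMI, against 0.219% and 0 of 4559 cells of the non-basal clusters, where the 0 allows a share of up to 0.0658% with a UMI at this thinned depth only and 4 of the clusters' 4608 cells met the basal rule (median depths before thinning 16093 and 24663.5 UMIs). Without thinning the shares were 69.2% and 41.4% of basal cells and 2.21% and 0.434% of cells of the non-basal clusters. Endothelial markers summed to 2.53 CPM in basal cells, with 4 of 8 at 0.

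Hes1 and Hey1 were also past the 2-fold line in basal cells, and no receptor was. Hes1 was at 178 CPM in non-basal and 1061 in basal cells, 5.98-fold higher (5.84 to 6.11), and Hey1 at 2.16 and 5.26, 2.44-fold higher (1.79 to 3.27). Notch1 went from 41.6 to 61.2, 1.47-fold (1.35 to 1.6), Notch2 from 39.6 to 45.2, 1.1-fold (1.04 to 1.26), and Notch3 from 9.85 to 5.16, 0.524-fold (0.388 to 0.692), all within the 2-fold line. Notch4 and Heyl had 4 and 1 UMIs in basal cells. Of the 8 genes with at least 5 CPM in either group, 5 were at least 2-fold higher and none at most 0.5-fold, where 18.8% of the 10360 genes at that level were past the line either way, 10.2% as higher and 8.60% as lower. Their median log2 ratio was 1.2, against -0.05 over all genes at that level. Jag2, Dll1 and Hey1 lay below 0.5-fold of 5 CPM in non-basal cells. Reaching 5 CPM in basal cells thus put them past the line by itself, and the median rests in part on them. The basal rule used only Krt14 and Trp63, but cells of 1 library share their source, so these ratios carry no test.

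The authors' clustering of CO and DES epithelial cells together split the basal cells into cluster 8 (351 cells, of which 74.9% met the basal rule) and cluster 11 (257 cells, 81.3%), and neither held a CO cell. The ligands were within 1.5-fold of each other in the 2 clusters. Jag2 was at 75.4 CPM in cluster 8 and 81.7 in cluster 11, a ratio of 0.924 (0.803 to 1.06), Dll1 at 33.2 and 28.5 (ratio 1.17, 0.927 to 1.47), and Jag1 at 55.1 and 48.5 (ratio 1.1, 0.953 to 1.36). Of the targets, Hes1 and Hey1 separated them, while Heyl had 2 UMIs in cluster 8 and 1 in cluster 11. Hes1 was at 1777 in cluster 8 and 150 in cluster 11, 11.8-fold higher (10.9 to 12.8), and Hey1 at 9.04 and 1.24, 7.31-fold higher (2.97 to 23.3). Taken alone, cluster 11 lay below non-basal DES cells in Hes1 (log2 ratio -0.24), while its Hey1, from 5 UMIs, had an interval (0.402 to 2.89 CPM) that spans the non-basal level of 2.16, so that the higher Hes1 of basal cells lay in cluster 8. Restricting both clusters to cells that met the basal rule gave 11.1-fold for Hes1 and 5.28-fold for Hey1. Notch1 was 1.45-fold higher in cluster 8 (1.2 to 1.73) and Notch2 0.845-fold (0.705 to 1.01). Median depth was 17129 UMIs in cluster 8 and 11086 in cluster 11, and the cycling markers Top2a and Mki67 summed to 44.5 and 3.46 CPM. The part of depth and cycling in these differences was not tested, and since the clusters were built from all genes the differences are descriptions.

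**Figure D2:**
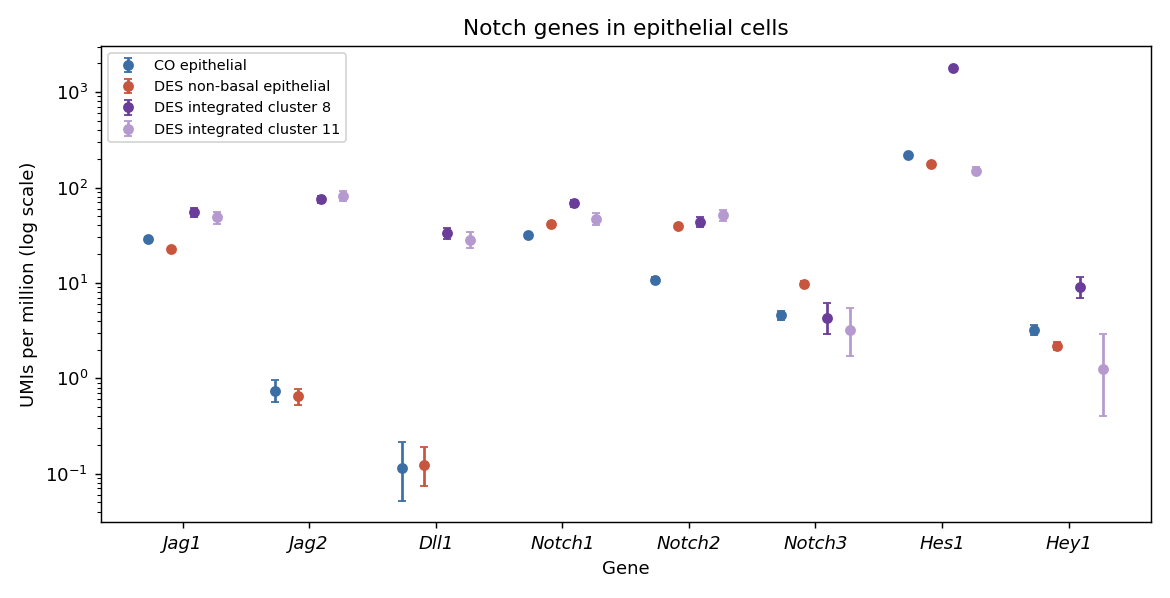
CPM (log axis) of 8 Notch genes in CO epithelial cells, DES non-basal epithelial cells and the DES integrated clusters 8 and 11, which hold most basal cells, with exact Poisson 95% intervals. Jag2 and Dll1 sit together in both basal clusters and near the bottom elsewhere, whereas Hes1 is high in cluster 8 (1777) and not in cluster 11 (150).

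Hes1 was set beside the ligand made by the same basal cell. At 3000 UMIs per cell, 61.0% of the 100 basal cells with a Jag2 UMI had a Hes1 UMI (exact 95% interval 50.7 to 70.6) and 67.9% of the 383 without (63 to 72.5). For Dll1 the shares were 69.8% of 43 cells (53.9 to 82.8) and 66.1% of 440 cells (61.5 to 70.6). For Jag1 they were 62.1% of 66 cells (49.3 to 73.8) and 67.1% of 417 (62.4 to 71.6). The intervals overlap in all 3 cases. In cluster 8 the Jag2 shares were 98.0% (89.4 to 99.9) and 93.0% (88.7 to 96.0), and in cluster 11 they were 22.4% (11.8 to 36.6) and 34.4% (27.1 to 42.3). The Dll1 shares lay the other way round in each, at 91.3% and 94.2% in cluster 8 and 45% and 30.2% in cluster 11, and the Jag1 shares were 88.6% and 94.7%, and 30.0% and 31.8%, with overlapping intervals throughout. Sparse counts limit these values, as 1 UMI decides each share. In cluster 8, where most cells had a Hes1 UMI, Hes1 UMIs per cell were 6.38 with and 5.0 without Jag2. They were 6.70 and 5.13 for Dll1 and 4.31 and 5.41 for Jag1, differences that were not tested.

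In non-basal epithelium the receptors Notch2 and Notch3 were past 2-fold higher in DES and no ligand was past the line. Here 2583 CO cells of 15 clusters were compared with 4608 DES cells of 16 clusters (4 of which met the basal rule), with median depths of 23458 and 24663.5 UMIs. Notch2 was at 10.7 CPM in CO and 39.5 in DES, 3.69-fold higher (3.44 to 3.97), and Notch3 at 4.56 and 9.86, 2.16-fold higher (1.93 to 2.43). Notch1 went from 31.9 to 41.7 (1.31-fold, 1.25 to 1.37), Jag1 from 28.9 to 22.6 (0.780-fold, 0.741 to 0.823) and Hes1 from 221 to 178 (0.805-fold, 0.790 to 0.821). Markers of other types moved in the same comparison, from 291 in CO to 109 CPM in DES for the stromal, 10.7 to 3.33 for the endothelial and 2.72 to 0.0975 for the mural list, and from 1.2 to 85.1 for the basal list, and their part in these ratios was not tested. Jag2 stayed at 0.736 and 0.646 and Dll1 at 0.114 and 0.122, and both ratios have intervals that span 1. Of the 5 genes at 5 CPM or more, 2 were past 2-fold higher and none lower, where 17.2% of 10119 genes were past the line either way, 9.0% as higher and 8.16% as lower.

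Notch2 ranged from 6.61 to 16.3 CPM over the 15 CO clusters (median 10.6) and from 18.8 to 61.4 over the 16 DES clusters (median 39.2). Every DES cluster lay above every CO cluster, but the clusters of a treatment share 1 library and are not replicates. The share of all genes split in this way was not counted, so the split cannot be read as particular to Notch2, and the same holds for the Notch3 count below. Notch3 had a median of 4.15 in CO and 8.23 in DES, with 11 of 16 DES clusters above all CO clusters, and DES cluster 14 (67 cells) reached 39.6 (32.1 to 48.4), with cluster 5 next at 20.2. That cluster was also the highest for Hey1, at 48.7 (40.3 to 58.3) against 6.21 in the next DES cluster and a DES median of 1.09. In CO, Hey1 was highest in clusters 13 and 10, at 16.8 and 15.6, levels whose order the intervals do not settle.

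Hes1 singled out another cluster. DES cluster 9 (190 cells) was at 913 CPM (892 to 935), cluster 14 next at 267, and the DES median was 134, whereas the CO clusters ran from 86.3 to 375 (median 210). Basal markers summed to 75.3 in cluster 9 and 395 in cluster 14, against 80.8 in the other DES clusters and 5869 in integrated cluster 8. Of the 190 cells of cluster 9, 3 lay in integrated clusters 8 or 11 and 129 in integrated cluster 16. Its median depth was 23259 UMIs and its cycling markers summed to 77.9, against 37.8 in the other DES clusters. Jag2 and Dll1 stayed low in all clusters, at most 1.84 and 0.355 over the DES clusters. Of the CO clusters, the 4 glandular ones ran from 0 to 2.25 in Notch3 and the 10 luminal ones from 2.39 to 7.91. In glandular cluster 13, 1 UMI amounts to 1.12 CPM, so the order of the closest clusters is not settled. The glandular and luminal clusters overlapped in Jag1 (33.7 to 55.0 and 19.1 to 49.5) and in Notch1 (10.2 to 49.4 and 27.9 to 51.8).

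**Figure D3:**
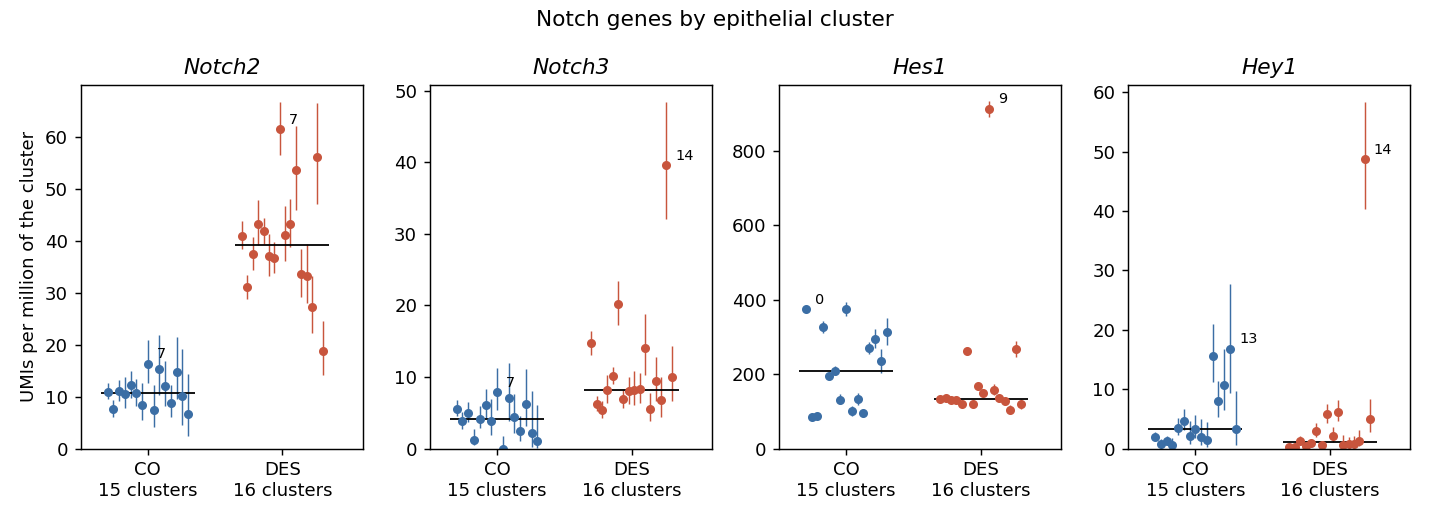
CPM of Notch2, Notch3, Hes1 and Hey1 in each epithelial cluster of CO (15) and DES (16), with exact Poisson 95% intervals, horizontal lines at the medians and the highest cluster numbered. All DES clusters exceed all CO clusters in Notch2, and DES clusters 9 (Hes1, 913) and 14 (Notch3, 39.6, and Hey1, 48.7) stand apart.

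Outside the epithelium, 3 cell types had at least 50 cells in both libraries. In mesothelial cells (6866 CO and 3837 DES, median depths 10436 and 12329 UMIs) Hes1 was lower in DES, at 60.9 against 150 CPM (0.407-fold, 0.392 to 0.422). There Jag1 went from 19.5 to 10.7 (0.550-fold, 0.502 to 0.602) and Notch2 from 36.1 to 71.2 (1.97-fold, 1.88 to 2.06), both just inside the line. Thus 1 of 3 genes at 5 CPM was past 2-fold, where 5.11% of 10570 genes were past it, 2.32% as higher and 2.79% as lower. In mesothelial cells the epithelial list went from 2074 in CO to 1277 CPM in DES, and the mural list from 16.8 to 6.64. The myeloid list went from 23.0 to 50.4. The part of such markers in the Hes1 difference was not tested. Lymphocytes (423 CO and 239 DES, median depths 4033 and 5599) had Notch2 at 30.3 in CO and 69.8 in DES (2.31-fold, 1.68 to 3.18), 1 of 4 genes past the line, with 14.6% of 10370 genes past it, 7.77% as higher and 6.86% as lower. The myeloid list was also higher in DES than in CO in these cells (8886 and 3431 CPM), and its part in the Notch2 difference was not tested. This call was lost when the mean over cells was taken or the 20 most abundant genes were left out of the totals. In myeloid cells (67 CO, 228 DES) Jag1 was 0.264-fold (0.0816 to 0.834), resting on 8 and 7 UMIs, 1 of 4 genes where 31.1% of 10326 were past the line, 5.97% as higher and 25.1% as lower. Myeloid Notch2 was at 30.8 in CO and 29.4 in DES. The median log2 ratio of all genes at 5 CPM was -0.40 in myeloid cells and 0.15 in lymphocytes. Markers of other types were lower in DES than in CO myeloid cells, from 4950 to 260 CPM for the stromal, 605 to 52.0 for the mesothelial and 961 to 265 for the epithelial list, and their part in the Jag1 difference was not tested.

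The spatial sections, with 1 mouse each, allow a test over samples. Counts were summed per section and tested in edgeR by quasi-likelihood, with p-values adjusted by Benjamini-Hochberg and read at 0.05, and no exact test of 2 against 2 sections can fall below a two-sided p of 0.333. In such sums, fewer cells of a type and less RNA per cell cannot be told apart. The sections differed in makeup. Basal markers summed to 3.36 CPM in CO A, 160 in CO B and 9526 and 5644 in the DES pair. Muscle markers went from 14758 and 16169 to 3562 and 4036, stromal markers from 2915 and 2931 to 1359 and 968, mural markers from 263 and 357 to 130 and 115, and endothelial markers from 160 and 270 to 155 and 142, so that both DES sections lay below both CO sections in these 4 lists, by little in the endothelial one. Myeloid markers were at 334 and 677 in CO and at 2060 and 1153 in DES, and lymphoid markers at 6.40 and 10.2 and at 17.3 and 32.7. Epithelial markers (3582, 2125, 3557 and 3865) overlapped. The part of makeup in the differences below was not tested.

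Of the ligands, Jag2 was at 4.08 and 7.61 CPM in the CO sections (A, then B, here and below) and at 103 and 80.9 in the DES sections. Both DES sections were far above both CO sections. The fold was 13.7 (95% interval 7.44 to 25.2; log2 3.78, SE 0.34; edgeR adjusted p = 0.0206). Dll1 was at 0.560, 2.54, 17.9 and 19.3 in the same order. It did not pass, at a fold of 10.6 (3.37 to 33.2; log2 3.40; edgeR adjusted p = 0.0552), resting on 7 UMIs in CO A and 28 in CO B. Its log2 difference was 2.69 without CO A and 4.80 without CO B. DESeq2 gave Dll1 an adjusted p of 3.67e-06, and no filter on low counts 0.0376. Jag1 was at 21.2, 31.8, 58.2 and 40.0, a fold of 1.6 (0.980 to 2.62; edgeR adjusted p = 0.221).

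Hes1 led the targets, at 67.7 and 60.1 CPM in CO and 220 and 226 in DES. The sections of each treatment lay close together, and the fitted fold, after TMM scaling, was 3.02 (2.21 to 4.13; log2 1.6, SE 0.17; edgeR adjusted p = 0.0219). Heyl was at 2.32, 3.08, 10.2 and 7.79 (fold 2.88, 1.62 to 5.11; edgeR adjusted p = 0.0678), and Hey1 at 4.32, 2.36, 10.9 and 7.09 (fold 2.29, 1.06 to 4.96; edgeR adjusted p = 0.181). Neither passed.

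Of the receptors, Notch3 was at 14.6, 22.5, 71.2 and 56.9 CPM, 3.0-fold higher in DES (1.90 to 4.74; log2 1.58, SE 0.26; edgeR adjusted p = 0.0402). Notch1 was at 36.5, 34.4, 73.4 and 67.5 (fold 1.72, 1.30 to 2.28; edgeR adjusted p = 0.0630), Notch2 at 19.1, 29.2, 52.4 and 44.7 (fold 1.75, 1.13 to 2.69; edgeR adjusted p = 0.131) and Notch4 at 6.72, 7.25, 5.48 and 4.15 (fold 0.596, 0.357 to 0.997; edgeR adjusted p = 0.203). These 3 did not pass, though their sections did not overlap.

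In all, 3 of 10 genes passed, all higher, where 5.30% of 14098 genes passed, 2.67% as higher and 2.63% as lower, with 3438 genes at an unadjusted p under 0.05. In 9 of the 10 both DES sections lay above both CO sections, against 43.8% of all genes tested, and in Notch4 both lay below, against 17.9%. Their median log2 difference was 1.36, and that of all genes -0.01. Without DES A the adjusted p values of Jag2, Hes1 and Notch3 were 0.0571, 0.157 and 0.225, and without DES B 0.0604, 0.185 and 0.184, so that none of the 3 passed with a single DES section. All genes passing fell from 747 to 14 and 3 in those fits, in which the lone section is assumed to vary like the CO pair. Leaving out CO A or CO B instead passed 6 and 7 of the 10 genes, while all genes passing rose to 2819 and 2336, with Dll1 (0.00802 and 0.00439) and Notch1 (0.0224 and 0.0340) among them in both.

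**Figure D4:**
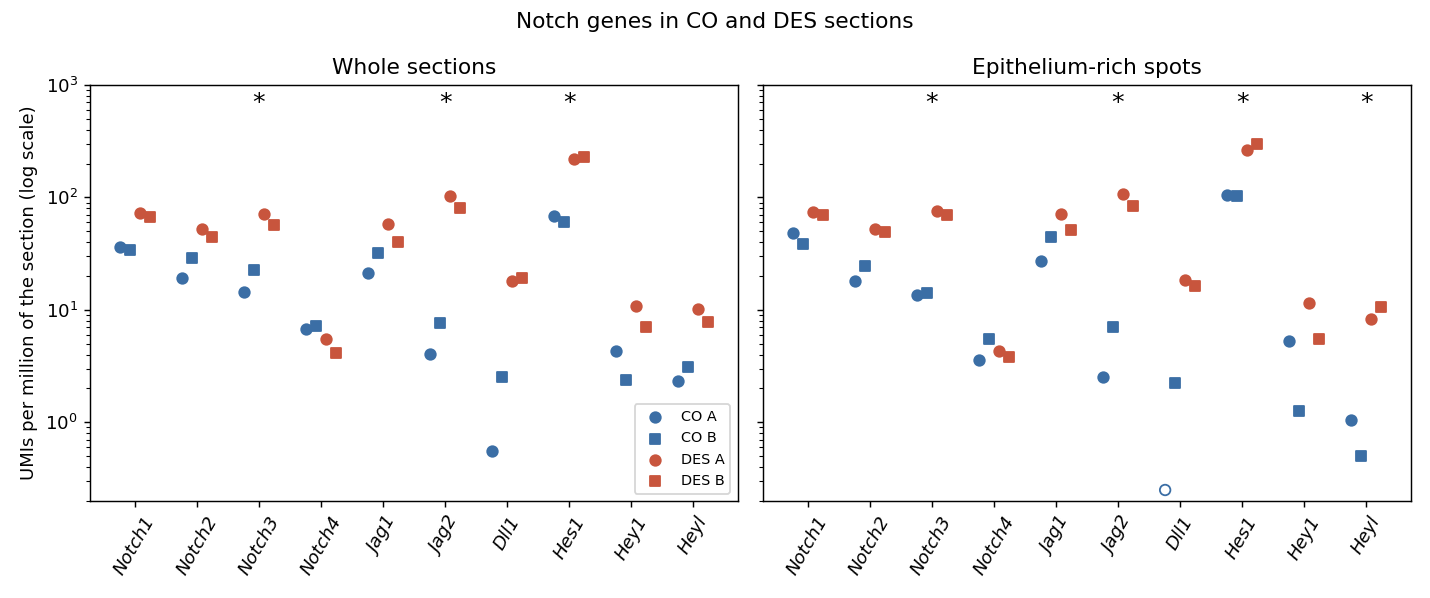
CPM (log axis) of the 10 Notch genes in CO A, CO B, DES A and DES B over whole sections (left) and the 20% of spots richest in epithelial markers (right), 1 point per section; an asterisk marks an edgeR adjusted p under 0.05 and the open symbol a section with no UMI. Jag2, Hes1 and Notch3 pass in both panels and Heyl on the right, and in Jag2 the DES points (80.9 to 106) lie far above the CO points (2.53 to 7.61).

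Limiting each section to the 20% of spots with the most epithelial markers kept 271 to 367 spots. There the epithelial markers overlapped between treatments (5946 and 3995 CPM in CO, 5147 and 5632 in DES), while basal markers were at 4.64 and 174 in CO and 9302 and 5936 in DES, and myeloid markers at 147 and 246 and at 1909 and 747. Jag2 was at 2.53, 7.0, 106 and 83.5, a fold of 16.3 (7.49 to 35.5; log2 4.03; edgeR adjusted p = 0.0191), and the log2 difference was 3.47 without CO A and 4.88 without CO B. Hes1 was at 106, 102, 266 and 296 (fold 2.18, 1.57 to 3.04; edgeR adjusted p = 0.0372). Notch3 was at 13.5, 14.2, 75.5 and 70.0, with the sections of each treatment close together (fold 4.23, 2.99 to 5.97; edgeR adjusted p = 0.0143). Heyl was at 1.06, 0.50, 8.24 and 10.7 (fold 9.28, 3.56 to 24.2; log2 3.21; edgeR adjusted p = 0.0383), from 5, 2, 25 and 31 UMIs, and its log2 difference was 3.87 without CO A. Dll1, with no UMI in CO A and 9 in CO B, was at 0, 2.25, 18.5 and 16.2 and did not pass (edgeR adjusted p = 0.0858). Thus 4 of 10 genes passed, all higher. Of 11932 genes 6.13% passed, 3.76% as higher and 2.37% as lower. In the other spots of DES A and DES B, Jag2 was at 102 and 79.8 and Notch3 at 69.0 and 51.4. There Hes1 was at 198 and 197 and Heyl at 11.2 and 6.59. Leaving out DES A left 1 of the 4 past the threshold (Jag2, edgeR adjusted p = 0.0484) and leaving out DES B none.

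Levels differed between the 2 assays, shown here for Notch3, Heyl, Jag2 and Hes1. In DES epithelium-rich spots Notch3 reached 70.0 to 75.5 CPM, whereas dissociated DES cells had 9.86 in non-basal epithelial and 5.16 in basal cells, with 39.6 in their highest cluster. Heyl was at 8.24 and 10.7 in those spots and at 0.0792 and 0.101 in the dissociated cells. In CO the spots were also above the cells, with Notch3 at 13.5 and 14.2 against 4.56 and Heyl at 1.06 and 0.50 against 0.0761 in CO epithelial cells. Mural markers in the DES spots were at 47.8 and 40.4, below the 88.4 and 113 of the CO spots, and the DES library held no pericytes. Jag2 was at 106 and 83.5 in the DES spots, against 73.8 in basal and 0.646 in non-basal DES cells. For Hes1 the CO spots (106 and 102) lay below CO epithelial cells (221). The DES spots (266 and 296) lay between non-basal (178) and basal (1061) DES cells. Hes1 was thus higher in DES than in CO in the spots and lower in non-basal cells. The assays were not compared by a test.

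In the spots of the clusters that the study names as stroma (101 to 211 spots and 346412 to 1015381 UMIs a section), no gene of the group passed. Notch4, Dll1, Hey1 and Heyl fell below the count filter, and of the 6 tested 0 passed in edgeR and 0 in DESeq2, where edgeR passed 1.47% of 8914 genes (0.796% higher, 0.673% lower) and 1194 had an unadjusted p under 0.05. Jag2 was at 16.1, 14.1, 99.5 and 43.3 CPM (fold 4.73, 2.32 to 9.64; edgeR adjusted p = 0.0549), from 9, 13, 101 and 15 UMIs, and the call turned with single sections, passing without CO A (0.0384) and without DES B (0.0464) but not without CO B (0.130) or without DES A (0.543), where the log2 difference was 1.56 against 2.24. Hes1 was at 46.6, 42.3, 150 and 80.8 (fold 2.54, 1.44 to 4.50; edgeR adjusted p = 0.126). Without a filter on low counts, and in the 20% of spots richest in stromal markers, both Jag2 (adjusted p = 9.35e-05 and 0.0176 in edgeR) and Hes1 (0.0222 and 0.0176) passed. The DES stromal spots also carried basal markers, at 7058 and 1998 CPM against 0 and 90.0 in CO, and muscle markers at 3170 and 9544 against 963 and 762.

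Where in the section a gene lay was read from the ratio of its level in the 20% of spots richest in a marker list to its level in all other spots. Jag2 was enriched in endothelial-rich spots of CO A (6.89) and CO B (2.14) and depleted there in DES A (0.681) and DES B (0.659). Dll1 behaved alike, at 39.8 and 2.01 in CO and 0.855 and 0.569 in DES, though the CO A value rests on 6 UMIs against 1. Notch3 was enriched in endothelial-rich spots in CO (3.18 and 3.32) and near an equal level in DES (1.08 and 0.958), and likewise in mural-rich spots (1.97 and 2.28 in CO, 0.936 and 0.856 in DES). Heyl was enriched in mural-rich spots of all 4 sections (3.15, 4.97, 1.76 and 2.47). Notch4, the endothelial receptor, was enriched in endothelial-rich spots of all 4 sections (1.68, 2.90, 4.50 and 2.64). Both CO sections lay on one side of an equal level and both DES sections on the other for 2 of the 10 genes with the endothelial list (7.72% of the 14098 genes tested in whole sections), 4 with the mural (8.06%), 4 with the stromal (6.96%), 2 with the epithelial (7.60%) and 2 with the muscle list (7.38%). That is 14 of 50 pairs of gene and list, against 7.54% of all such pairs, but the lists were read on the same 4 sections and the pairs are not independent.

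Basal-rich spots were read in the DES sections only, because fewer than 20% of CO spots had a basal score above 0 (2.72% in CO A and 11% in CO B, against 92.2% and 93.4% in the DES pair). In them 7 of the 10 genes were above an equal level in both DES sections, as were 32.0% of the 14098 genes. The ratios in DES A and DES B were 1.39 and 1.84 for Jag2, 1.73 and 1.64 for Dll1, 1.64 and 1.71 for Jag1, 1.38 and 1.37 for Hes1, 1.48 and 1.82 for Notch1, 1.43 and 1.85 for Notch3 and 1.37 and 1.66 for Heyl, whereas Notch4 was at 0.356 and 0.558, and Notch2 (1.19 and 0.903) and Hey1 (0.835 and 1.49) lay on opposite sides in the 2 sections. Hes1 was enriched in epithelial-rich spots of every section, more in CO (2.39 and 2.81) than in DES (1.35 and 1.5), a difference not tested. The basal score was added after the other scores had been seen.

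**Figure D5:**
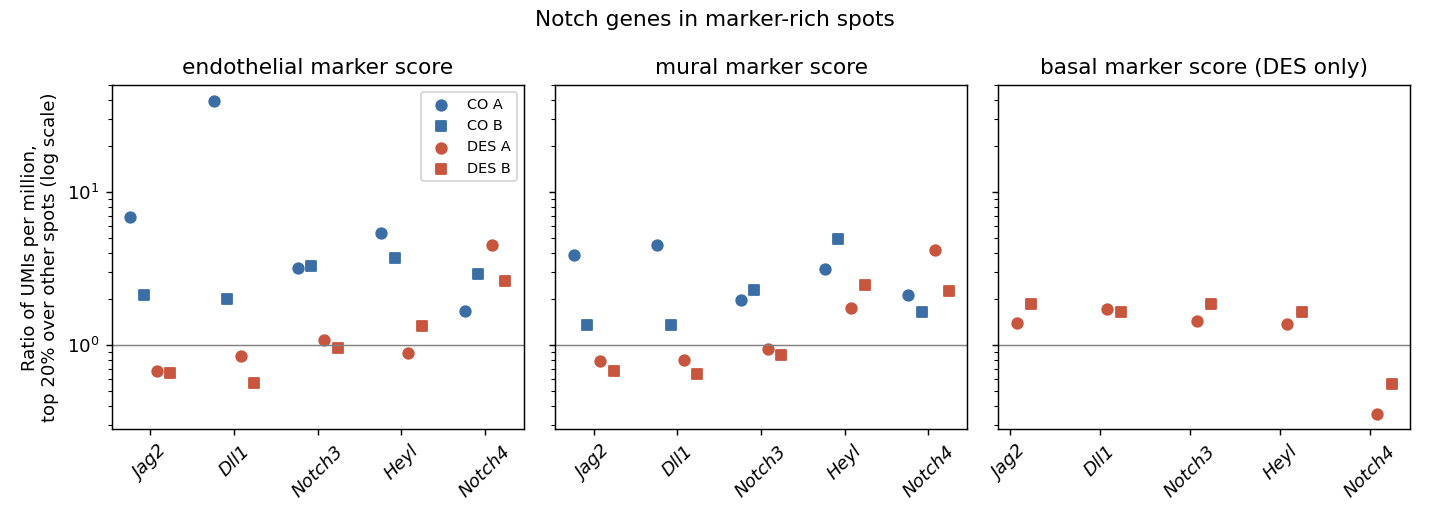
Ratio (log axis) of CPM in the 20% of spots with the highest endothelial, mural or basal marker score to all other spots, for Jag2, Dll1, Notch3, Heyl and Notch4 in each section, with the basal score shown for the DES sections only; the gray line marks a ratio of 1. Jag2 and Dll1 are above 1 in endothelial-rich spots of both CO sections and below 1 in both DES sections, and Notch4 is above 1 in endothelial-rich spots of all 4.

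Beyond the 10 genes, 46 other genes of the pathway were read, from ligands to nuclear cofactors. In whole sections 40 were tested, and 1 passed as higher and 2 as lower, where 2.67% and 2.63% of all genes did. Nrarp, a feedback inhibitor that Notch signaling itself induces, was at 2.80, 3.63, 54.0 and 42.0 CPM (log2 difference 3.69; edgeR adjusted p = 0.0162). Dll4, the ligand of endothelial tip cells, was at 19.6, 21.1, 5.92 and 4.76 (log2 -2.14; edgeR adjusted p = 0.0212), and Numbl, a relative of the Notch antagonist Numb, differed by -1.12 (edgeR adjusted p = 0.0401). In epithelium-rich spots 38 were tested, with Nrarp higher (log2 4.12; edgeR adjusted p = 0.0132) and Dll4 lower (log2 -3.60; edgeR adjusted p = 0.0134). Of all genes in epithelium-rich spots 3.76% passed as higher and 2.37% as lower. In stromal spots 30 were tested and none passed in edgeR, where 1.47% of all genes passed. The median log2 difference of the list was -0.01 in whole sections and 0.08 in epithelium-rich spots.

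In single cells, of 29 genes at 5 CPM in non-basal epithelium 1 was past 2-fold higher (Neurl1b, a ubiquitin ligase for ligands, 1.94 and 5.00) and 1 lower (Dll4, 7.08 in CO and 0.658 in DES, 0.0930-fold, in cells whose endothelial markers went from 10.7 to 3.33), a smaller share than the 17.2% of all genes past the line. At 10 CPM or more the largest ratios were those of the proteases Furin (63.4 in CO and 34.6 in DES) and Adam17 (43.7 and 25.6), the gamma-secretase subunit Ncstn (91.8 and 55.5), Dtx3 (6.56 and 11.1) and the coactivator Maml2 (13.4 and 22.0), all within the line. Between basal and non-basal DES cells 3 of 31 were higher and 1 lower, where 10.2% and 8.60% of all genes were. Dlk2, a membrane protein related to the ligands, went from 0.0977 to 45.3 (464-fold, 282 to 818), the glycosyltransferase Lfng from 2.81 to 8.80, the gamma-secretase subunit Aph1b from 2.35 to 5.26, and Neurl1b from 5.00 to 1.21. Dtx3 (11.1 and 21.3), Poglut1 (17.0 and 26.9) and Psenen (275 and 182) stayed within the line. Only 45 genes of the list had a row in single cells. Of its 7 further target genes, which include Nrarp, 6 had a row. None of these was past the line in any single-cell comparison, unlike Nrarp in the sections.

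In mesothelial cells 0 of 31 were past the line (5.11% of all genes), and the largest ratios were those of Dtx4 (11 in CO and 20.8 in DES), Fbxw7 (24.0 and 16.1), Spen (28.7 and 21.6), Dtx3 (64.0 and 84.3) and Rbpj (94.4 and 122). Lymphocytes had 2 of 33 genes past it (14.6% of all genes), Lfng (34.3 and 92.7) and Dtx3 (10.7 and 31.6), both higher, and Fbxw7 (41.4 and 22.8), Aph1c (12.9 and 22.2) and Aph1a (44.9 and 72.5) came next. Of 33 in myeloid cells 3 were higher and 3 lower (5.97% and 25.1% of all genes), among them Mfng (4.87 and 20.1), Neurl1a (6.49 and 20.6) and Maml3 (4.87 and 11.3) as higher and Poglut1 (22.7 and 9.81) and Rfng (17.9 and 7.84) as lower, with 3 to 14 CO UMIs each.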

How the data were processed

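Single-cell and Visium libraries were counted by the authors as UMIs per gene with Cell Ranger 3.0.1 and Space Ranger 1.2.2 on mm10 (GRCm38), with bcl2fastq 2.20.0.422 named in the submitters' notes, and the deposited counts are not normalized. Cell types, epithelial clusters and spot clusters are the authors' own; doublets had been removed before annotation per the study's methods. Metadata list 350 cells that have no counts. Here, UMIs were summed per cell group or section and scaled to a total of 1000000 (CPM). Cell groups were compared by ratio (2-fold, at least 5 CPM in either group), with no test. Section sums were tested with edgeR 4.0.16 (TMM factors, filterByExpr, quasi-likelihood F test, Benjamini-Hochberg adjustment at 0.05) over all genes, and DESeq2 1.42.0 was an alternative, with limma 3.58.1 loaded by edgeR. Scripts were tested on simulated data. Shares of cells used thinning to 3000 UMIs per cell (seed 20230). Spot scores summed log(1 + UMIs per 10000) over a marker list. The 10 genes, the pathway list, the markers and the tests were chosen with earlier results of these data known. All 10 genes were named by CO cell type and in whole sections, but not in every other comparison. Pathway genes were named where they passed a test, and in single cells the 5 with the largest ratio at 10 CPM or more; others past 2-fold were chosen after their values were seen. A gene that this rule names is not reported here. For likeness the 3 highest correlations are given. Added after the data were seen were the cells with shared barcodes left out, the basal spot score, and each integrated basal cluster taken alone. Gene positions are from GENCODE M21. Precision is limited by UMI depth in single cells and by 2 sections per treatment in tissue.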

Additional observations from a re-analysis of the deposited data

Results flagged for a closer look

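For each gene and each of 5 marker lists, the log2 ratio of marker-rich to other spots was compared between treatments. In 14 of the 50 pairs of gene and list, over 6 genes, both CO sections lay on one side of an equal level and both DES sections on the other, where 7.54% of such pairs did so over all genes tested in whole sections (6.96% to 8.06% by list). These differences were not tested, and with 2 sections each such a split can arise without any difference. Values are the DES mean minus the CO mean of the log2 ratio. Among the ligands, Jag2 differed by -2.52 for the endothelial, -1.65 for the mural, -1.54 for the stromal and 0.65 for the epithelial list, and Dll1 by -3.68 for the endothelial, -1.79 for the mural and -3.23 for the stromal list, with 7 UMIs of Dll1 in all of CO A. Among the receptors, Notch3 differed by -1.24 (mural), -1.0 (stromal) and 0.84 (epithelial), Notch1 by -0.51 (mural), Notch2 by -0.87 (stromal) and -0.39 (muscle), and Notch4 by 2.42 (muscle). Basal markers covered most spots of the DES sections and few of the CO sections, and their part in these values was not tested.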

How the results depend on the processing

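In whole sections, DESeq2 passed 6 genes of the group and 1756 of all genes, against 3 and 747; leaving out 1 section gave 0 to 7 and 3 to 2819. In epithelium-rich spots DESeq2 passed 1219 genes and no count filter 1341, against 732, and leaving out a section gave 0 to 6 of the group and 9 to 2547 of all. In stromal spots, with 0 and 131, no filter gave 2 and 714, the top 20% by stromal score 2 and 207, and leaving out a section 0 to 1 and 40 to 357. With a section left out, stromal Notch3 ran from -0.12 (without CO A) to 0.41 and Jag1 from -0.20 (without CO A or DES A) to 0.61, and with the stromal score Notch1 turned to 0.37; none passed, and the cause was not tested. The section letters do not pair the mice: same-lettered deviations correlated by -0.01, 0.09 and 0.03 over whole, stromal and epithelium-rich sums. With the letter as a replicate block, stromal spots passed 1 of the group (Jag2, adjusted p = 0.00538) and 453 of all genes, Notch3 in whole sections moved to an adjusted p of 0.0604, and Dll1 to 0.0466 (whole) and 0.0490 (epithelium-rich). In single cells the genes past 2-fold went from 2 to 1 in non-basal epithelium at 20 CPM, from 1 to 2 in mesothelial cells of at least 5000 UMIs, from 1 to 2 in such lymphocytes and to 0 without the 20 most abundant genes or by the mean over cells, and from 1 to 0 in myeloid cells at 20 CPM. Against non-basal cells, integrated cluster 11 alone gave -0.24 for Hes1 and -0.80 for Hey1, the latter from 5 UMIs. Of the values for single genes, 328 were labelled the same, 24 moved, 26 became past the threshold, 14 no longer passed and 6 turned. In sections, the same means the same call and direction. In single cells it means a ratio inside the main counting interval, whether or not the 2-fold call held. Of the counts of genes, 49 stayed the same or close to it and 35 moved.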
